A study of Bombyx mori with 12 samples.

Results

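Long terminal repeat (LTR) retrotransposons outside the Gypsy and Pao superfamilies were followed in BmN4, an ovary-derived cell line of the silkworm (Bombyx mori). Entries were taken by name: each row of the deposited tables gives a class and a superfamily, and entries of class LTR with a superfamily other than Gypsy or Pao were kept. This gave 30 of 1716 transposon entries and 30 of 126 LTR entries, namely 15 Copia entries, 14 LTR entries with no superfamily (Unclassified) and 1 entry filed as Retrovirus, Kuroneko. The last 2 kinds are called unplaced below. The further names that the rule leaves out removed no entry beyond these.

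Poly-A RNA was sequenced after siRNA against Siwi (SiwiKD) or Maelstrom (MaelKD), and in controls given siRNA against luciferase (LucKD). Small RNA bound to Siwi, pulled down with an anti-Flag antibody and size-selected at 22 to 35 nt, was sequenced after siRNA against Ago3 (Ago3KD) or Maelstrom (MaelKD), and in LucKD cells. Each group had 2 libraries, 12 in all, and every group was nucleofected with 500 pmol of siRNA, again with siRNA later, and grown for 10 days in all at 26 °C. The small RNA groups share the anti-Flag pull-down, so they show what the tagged Siwi carried. The labels do not tell whether replicate libraries stem from separate cultures, so a p-value here reflects the spread between libraries, which may be technical. Levels of the targeted genes were not analysed here.

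Copia elements are retrotransposons whose coding region, which encodes a capsid-like Gag and a polyprotein with protease, integrase and reverse transcriptase, lies between a pair of terminal repeats that carry the promoter and the polyadenylation signal. They differ from Gypsy and Pao elements in placing integrase ahead of reverse transcriptase. In animal germ cells such elements are targets of PIWI-interacting RNAs (piRNAs). In the silkworm, piRNAs bound to the PIWI proteins Siwi and Ago3 direct cleavage of transposon transcripts, and each protein's cleavage products feed the other in the ping-pong cycle. Maelstrom is a conserved piRNA pathway protein, and the series title links it to the making of Siwi-piRNA complexes. In Repbase-style names, "-I" marks the internal part of an element and "-LTR" its terminal repeat. For the other entries the tables give a name and a class but no function, no sequence and no coordinates.

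RNA values were RPKM (reads per kilobase of entry, scaled to library size) and small RNA values RPM (reads scaled to library size alone). The totals behind that scaling ran between 32.5 and 45.2 M reads for RNA and between 1.76 and 4.81 M for small RNA. A level is given with its SD (n = 2 libraries) and a log2 change with the standard error from limma. Reads that match several similar entries may be divided or repeated among them, so such entries may share reads. These are bulk libraries, in which fewer cells with a transcript and less of it per cell cannot be told apart.

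The entries spanned a wide range of size and of RNA level. A length could be recovered for 27 of them, 179 to 9957 nt, and 13 Copia entries lay between 3873 and 4738 nt. In LucKD cells FUI (unplaced, 2484 nt) had 126 and 119 RPKM, and LTR-2_BM-I (unplaced, 563 nt) had 101 and 108 RPKM. BmRT16 followed among Copia entries, with 15.8 and 14.6 RPKM. Only these 3 and BmTE_RM6-3582 (10.6 and 16.2 RPKM) had a control mean of at least 10 RPKM. At the other end, the terminal repeats Copia-1_BM-LTR and Copia-2_BM-LTR were listed at 0 in all 6 RNA libraries. BmRT27 had 0.00977 and 0.0122 RPKM in MaelKD cells and 0 in SiwiKD and LucKD cells. This is 1 read in each MaelKD library at the smallest length that fits, but its length and so its read number are not settled.

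All 30 entries had Siwi-bound small RNA in every library, including the 2 terminal repeats with no RNA reads. Per length, the order in LucKD cells was not that of the RNA. LTR-2_BM-I led with 1550 ± 205 RPM per kb, followed by Nukegara with 1231 ± 96.9 RPM per kb at only 1.94 ± 0.279 RPKM of RNA. FUI, the entry highest in RNA, had 95.1 ± 9.17 RPM per kb, and BmRT16 had 28.9 ± 0.305 RPM per kb. Nemawashi (432 ± 21.5 RPM per kb) and BmRT15 (291 ± 10.7 RPM per kb) were rich in small RNA beside 1.00 ± 0.246 and 0.809 ± 0.0327 RPKM of RNA. Kuroneko was lowest, with 2.34 ± 0.00386 RPM per kb. Across the 27 entries with a length, both levels had a Spearman's rho of 0.62, which is a description over entries that share the same libraries and the same length in both denominators.

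**Figure D1:**
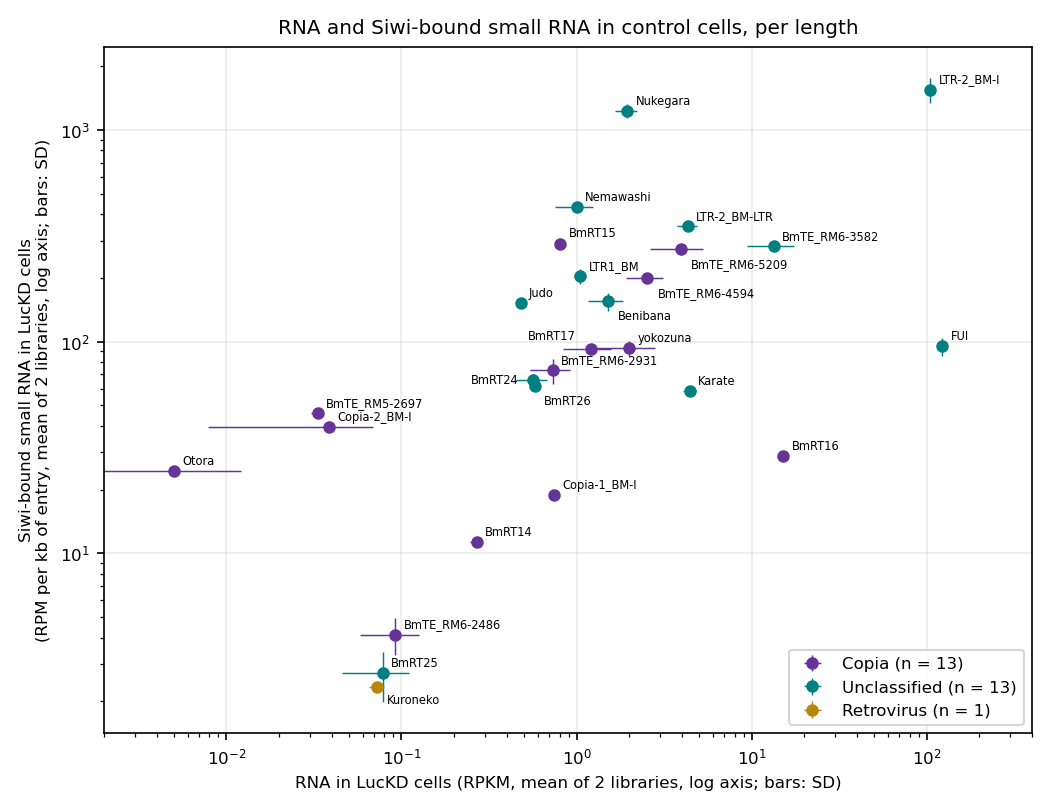
RNA level (RPKM) against Siwi-bound small RNA (RPM per kb of entry) in LucKD cells for the 27 entries with a recovered length, on log axes, as means of 2 libraries with SD bars. LTR-2_BM-I is high on both axes, Nukegara has 1231 RPM per kb beside 1.94 RPKM, and FUI has 95.1 RPM per kb beside 123 RPKM.

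Knockdown of Siwi was set against control to ask which elements change in RNA when the PIWI protein itself is targeted. RNA of 10 of the 16 entries that could be tested rose and none fell (limma, Benjamini-Hochberg adjusted p under 0.05 over 490 entries with a mean of at least 1 RPKM). Among all 490 tested entries 27.3% were called, 24.3% higher and 3.06% lower. The median log2 change was 0.79 over the 16 entries and 0.15 over all 490. Of 28 tested Gypsy LTR entries 13 rose and 3 fell (median 0.45). Of 19 tested Pao LTR entries 8 rose and none fell (median 0.37). Of the 10 rises among the 16 entries, 8 were among 11 unplaced entries and 2 among 5 Copia entries, which is too few Copia entries to compare. Of the 30 entries, 14 did not pass the filter, and 2 of the 16 (BmRT24 and BmRT26) passed it only through the knockdown libraries. With a filter on the control mean, 9 of 14 were called, all higher, beside 94 higher and 12 lower of all 466 entries then tested.

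LTR-2_BM-I rose most, with 396 and 431 RPKM in SiwiKD cells against 101 and 108 RPKM in LucKD cells. This was a 3.95-fold difference of means (log2 change 1.97 ± 0.20, limma adjusted p = 2.08e-09), and the groups lay far apart. Its terminal repeat, LTR-2_BM-LTR, had 13.2 and 16.5 RPKM in SiwiKD cells against 3.92 and 4.74 RPKM in LucKD cells (log2 change 1.57 ± 0.20, limma adjusted p = 3.27e-07). The internal part thus stood 26.1 to 29.9 times above the repeat per length in SiwiKD cells, and 22.8 to 25.8 times in LucKD cells.

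FUI had 608 and 295 RPKM in SiwiKD cells against 126 and 119 RPKM in LucKD cells (log2 change 1.78 ± 0.24, limma adjusted p = 6.26e-07). Both SiwiKD libraries were above both controls, but they differed from each other by 2.06 times. Karate (unplaced, 4188 nt) showed the same split, with 14.5 and 7.0 RPKM in SiwiKD cells against 4.17 and 4.68 RPKM in LucKD cells (log2 change 1.04 ± 0.24, limma adjusted p = 0.00152). Its call was lost without SiwiKD replicate 1 (limma adjusted p = 0.139). BmRT26, with 2.20 and 0.900 RPKM in SiwiKD cells against 0.571 and 0.594 RPKM in LucKD cells, did not pass (limma adjusted p = 0.0909) and did so without SiwiKD replicate 2 (limma adjusted p = 0.0161).

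Of the Copia entries, BmRT16 rose to 31.8 and 30.5 RPKM in SiwiKD cells, against 15.8 and 14.6 RPKM in LucKD cells (log2 change 0.99 ± 0.18, limma adjusted p = 8.67e-05). Its replicates lay close together in both groups. The other Copia rise was yokozuna, with 3.48 and 4.51 RPKM in SiwiKD cells against 1.42 and 2.58 RPKM in LucKD cells (limma adjusted p = 0.0214). BmRT17 had 2.16 and 2.12 RPKM in SiwiKD cells against 0.945 and 1.46 RPKM in LucKD cells (limma adjusted p = 0.136), and BmTE_RM6-4594 had 3.90 and 3.95 RPKM in SiwiKD cells against 2.10 and 2.96 RPKM in LucKD cells (limma adjusted p = 0.108). In both, the SiwiKD libraries lay above the controls without passing the test. BmTE_RM6-5209 overlapped between the groups, at 3.13 and 3.51 RPKM in SiwiKD cells and 3.01 and 4.88 RPKM in LucKD cells.

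The remaining rises were unplaced entries of lower level. Nemawashi reached 3.05 and 2.14 RPKM in SiwiKD cells, against 0.826 and 1.17 RPKM in LucKD cells. LTR1_BM had 3.07 and 2.7 RPKM in SiwiKD cells against 0.991 and 1.11 RPKM in LucKD cells, and BmRT24 had 2.02 and 1.54 RPKM in SiwiKD cells against 0.647 and 0.485 RPKM in LucKD cells. All 3 passed the test with adjusted p between 0.00727 and 0.0177 (limma). BmTE_RM6-3582 had 27.8 and 18.0 RPKM in SiwiKD cells against 10.6 and 16.2 RPKM in LucKD cells (limma adjusted p = 0.0103), a call lost with trimmed-mean scaling, as was that of yokozuna. Benibana and Nukegara had fitted changes of -0.16 and -0.29 on the log2 scale and did not pass.

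The count of 10 rises was 5 without SiwiKD replicate 1, 5 without LucKD replicate 1 and 8 with trimmed-mean scaling, where the medians were 0.66 over the 16 entries and -0.01 over all 490. The count over all 490 entries, 119 higher as deposited, was 88, 79 and 90 under the same 3 alternatives, and trimmed-mean scaling called 43 lower. BmRT24, BmTE_RM6-3582, LTR1_BM and Nemawashi lost their calls without either of these libraries, and yokozuna without LucKD replicate 1 or SiwiKD replicate 2. BmTE_RM6-4594 gained one without LucKD replicate 2 (limma adjusted p = 0.0404). BmRT16, FUI, LTR-2_BM-I and LTR-2_BM-LTR were called higher in every alternative they entered.

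**Figure D2:**
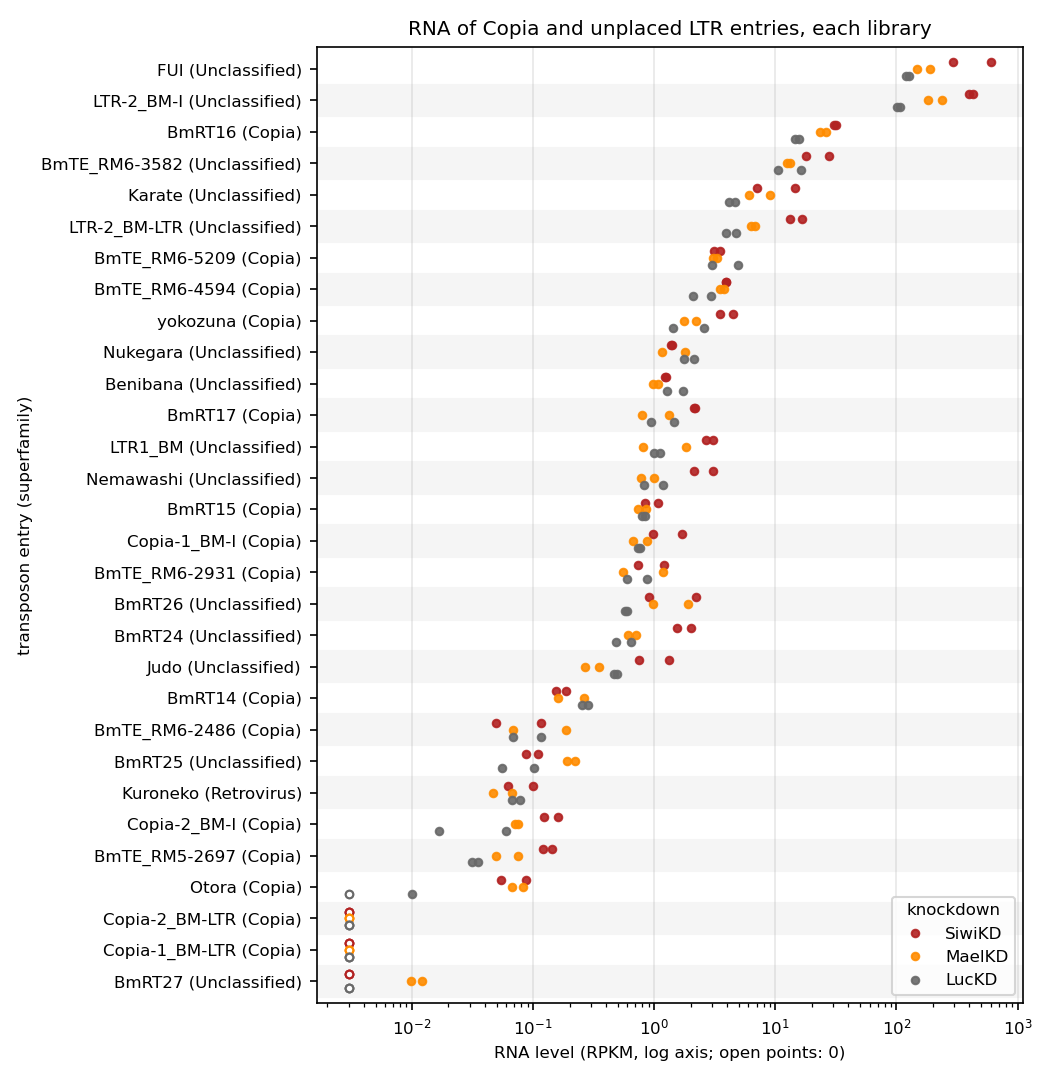
RNA level (RPKM, log axis) of all 30 entries in each of 6 libraries, with SiwiKD, MaelKD and LucKD points for each entry and open points for a value of 0. The SiwiKD points of LTR-2_BM-I (396 and 431 RPKM) stand apart from its LucKD points (101 and 108 RPKM), while those of FUI spread from 295 to 608 RPKM.

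Below the filter, 12 entries had RNA reads in at least 1 library, with a highest value of 1.70 RPKM. In SiwiKD cells 6 of these 12 lay above both controls and 1, BmRT14, below both, where 23.2% and 11.5% of all 488 such low entries did so. BmTE_RM5-2697, a Copia entry, had 18 and 19 reads in SiwiKD libraries against 6 and 4 in LucKD libraries. Copia-2_BM-I had 21 and 20 reads in SiwiKD cells against 3 and 8 in LucKD cells, and Otora had 8 and 16 reads in SiwiKD cells against 2 and 0 in LucKD cells. A count test without the filter called Otora, Judo and Copia-1_BM-I higher among the entries that limma did not test (edgeR adjusted p = 0.0129, 0.0112 and 0.0243). The reads carry no molecular identifiers, and no fold is given for Otora because its controls were under the floor of 3 reads.

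Knockdown of Maelstrom was compared with control to ask whether the same RNAs respond when that factor is targeted. RNA of 2 of 16 entries rose and none fell, where 11.0% of all 490 tested entries were called, 8.37% higher and 2.65% lower. LTR-2_BM-I had 237 and 184 RPKM in MaelKD cells against 101 and 108 RPKM in LucKD cells, a 2.01-fold difference of means (log2 change 0.99 ± 0.20, limma adjusted p = 0.000731). BmRT16 had 23.2 and 26.4 RPKM in MaelKD cells against 15.8 and 14.6 RPKM in LucKD cells (log2 change 0.67 ± 0.18, limma adjusted p = 0.0116). Neither pair of groups overlapped. The call of BmRT16 was lost without any 1 of the 4 libraries compared, and that of LTR-2_BM-I without MaelKD replicate 1. Calls over all 490 entries also fell in each of these fits, which leave 1 library in a group.

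Several entries were above both controls in MaelKD cells without passing. FUI had 148 and 191 RPKM in MaelKD cells against 126 and 119 RPKM in LucKD cells (limma adjusted p = 0.310). Karate had 6.09 and 9.11 RPKM in MaelKD cells against 4.17 and 4.68 RPKM in LucKD cells (limma adjusted p = 0.0957), and BmRT26 had 0.982 and 1.90 RPKM in MaelKD cells against 0.571 and 0.594 RPKM in LucKD cells (limma adjusted p = 0.215). LTR-2_BM-LTR had 6.80 and 6.31 RPKM in MaelKD cells against 3.92 and 4.74 RPKM in LucKD cells (limma adjusted p = 0.120). The count test called Karate and BmRT26 higher as well, 4 entries in all. For Nemawashi, yokozuna, BmRT24, LTR1_BM and BmTE_RM6-3582, which rose after Siwi knockdown, the MaelKD and LucKD libraries overlapped. Among the 12 low entries, 5 lay above both controls and 2 below, against 16.0% and 13.5% of all low entries. BmRT27, among the 5, had RNA reads in MaelKD libraries alone, so it entered the 12 only through them and could not lie elsewhere. Otora, also among the 5, had controls under the floor of 3 reads.

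Set directly against Siwi knockdown, Maelstrom knockdown left 8 of the 16 entries lower in RNA and none higher, where 20.4% of all 490 were called, 18.8% lower and 1.63% higher. Of 28 tested Gypsy LTR entries 14 were lower and none higher, and of 19 Pao LTR entries 5 were lower and 2 higher. BmRT24, one of the 8, passed the filter only through its SiwiKD libraries. With the filter on the control mean 7 of 14 entries were lower, beside 80 lower and 9 higher of all 466. FUI had 148 and 191 RPKM in MaelKD cells and 608 and 295 RPKM in SiwiKD cells (log2 difference -1.33 ± 0.24, limma adjusted p = 0.000139). LTR-2_BM-I had 237 and 184 RPKM in MaelKD cells and 396 and 431 RPKM in SiwiKD cells (log2 difference -0.98 ± 0.20, limma adjusted p = 0.000448), and LTR-2_BM-LTR had a log2 difference of -1.06 ± 0.20 (limma adjusted p = 0.000245). Nemawashi had 0.994 and 0.785 RPKM in MaelKD cells against 3.05 and 2.14 RPKM in SiwiKD cells (limma adjusted p = 0.00946). The others were BmRT24, BmTE_RM6-3582, LTR1_BM and yokozuna.

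BmRT16, the only Copia entry called in both knockdowns against control, did not pass between them. It had 23.2 and 26.4 RPKM in MaelKD cells and 31.8 and 30.5 RPKM in SiwiKD cells (log2 difference -0.32 ± 0.18, limma adjusted p = 0.276). The count of 8 was 4 with trimmed-mean scaling (FUI, LTR-2_BM-I, LTR-2_BM-LTR and Nemawashi), beside 45 lower and 12 higher of all 490 entries. It also fell without any 1 of the 4 libraries compared. Calls over all 490 entries fell in each of these fits too, which leave 1 library in a group. LTR-2_BM-LTR was called lower in every alternative it entered.

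**Figure D3:**
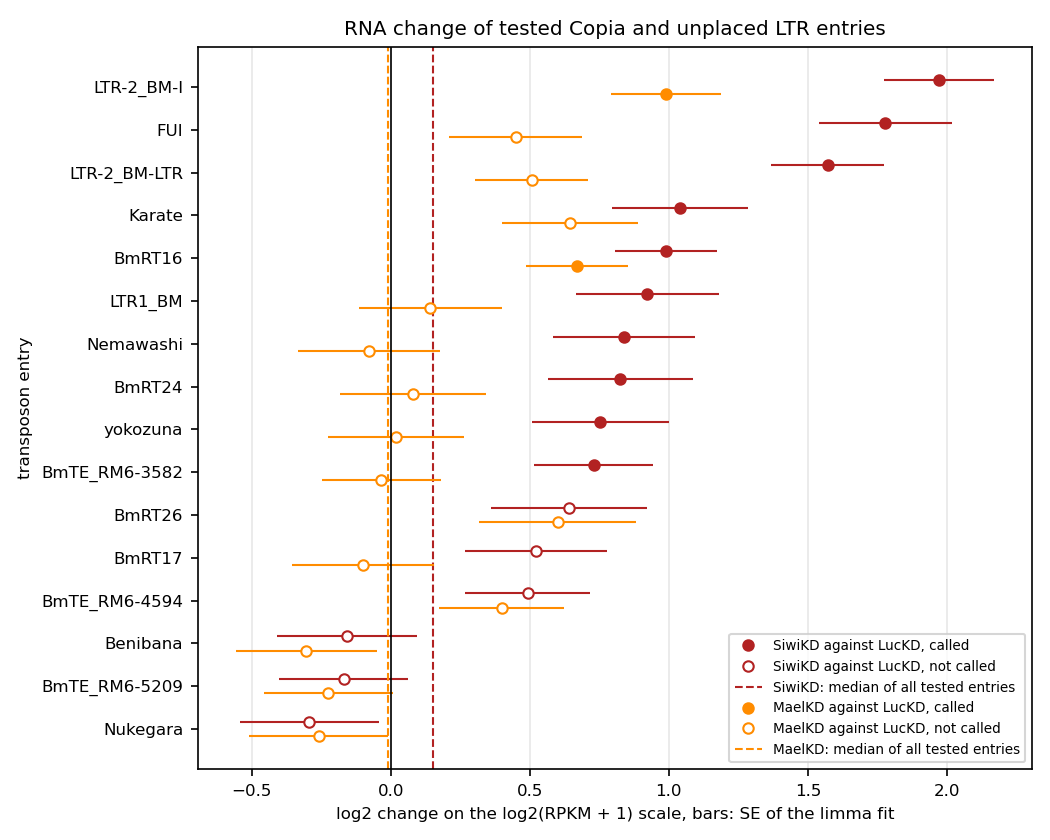
RNA log2 change of the 16 tested entries after Siwi and after Maelstrom knockdown, each against the same LucKD libraries, with SE bars, filled points where the adjusted p was under 0.05 and dashed lines at the median of all 490 tested entries. LTR-2_BM-I is at 1.97 for SiwiKD and 0.99 for MaelKD, and Benibana, BmTE_RM6-5209 and Nukegara lie below 0 for both without passing.

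As a share of the libraries, RNA reads on the 30 entries came to 0.209% and 0.127% in SiwiKD, 0.0726% and 0.0822% in MaelKD and 0.0536% and 0.0551% in LucKD cells. Without FUI they came to 0.0577% and 0.0542% in SiwiKD, 0.0360% and 0.0348% in MaelKD and 0.0222% and 0.0255% in LucKD cells. Both knockdowns lay above both controls with and without FUI, although with 2 libraries a group the smallest two-sided exact permutation p is 0.333. Of the reads on all LTR entries, the 30 entries held 26.1% and 18.9% in SiwiKD and 15.9% and 16.7% in MaelKD cells. In LucKD cells they held 14.6% and 11.3%. All 1716 listed entries together held 2.57% and 2.47% of the RNA reads in LucKD cells. They held 3.49% and 3.12% in SiwiKD and 3.08% and 2.77% in MaelKD cells.

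Small RNA on the 30 entries filled a larger share, with 0.938% and 0.933% of the Siwi-bound reads in Ago3KD, 1.29% and 1.29% in MaelKD and 1.22% and 1.22% in LucKD cells. The higher sum in MaelKD cells depended on the Copia entry BmRT15. Without it the shares were 0.824% and 0.822% in Ago3KD, 0.927% and 0.917% in MaelKD and 1.09% and 1.09% in LucKD cells, so that both knockdowns lay below control. Copia entries together held 0.751% and 0.753% in MaelKD against 0.553% and 0.516% in LucKD cells. Without BmRT15 the Copia sum was 0.380% and 0.376% in Ago3KD, 0.389% and 0.383% in MaelKD and 0.421% and 0.392% in LucKD cells, below both controls after either knockdown, although the MaelKD difference was smaller than the spread between the LucKD libraries. Unplaced entries held 0.538% and 0.534% in MaelKD against 0.666% and 0.702% in LucKD cells. In Ago3KD cells the full sums were lower for both kinds, with 0.494% and 0.488% for Copia entries and 0.444% and 0.445% for unplaced entries. The smallest exact p is again 0.333. All 1716 listed entries together held 42.4% and 43.7% of the Siwi-bound reads in LucKD cells. They held 36.1% and 37.1% in Ago3KD and 49.4% and 49.2% in MaelKD cells, so this wider sum moved the same way as the full sum of the 30 entries. In MaelKD cells the sum without BmRT15 and the unplaced sum moved the other way. Of the small RNA reads on all LTR entries, the 30 entries held 5.28% and 4.93% in Ago3KD and 8.42% and 8.32% in MaelKD cells. In LucKD cells they held 7.29% and 7.07%.

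Ago3 knockdown was compared with control to ask how the Siwi-bound pool changes when the partner PIWI protein is targeted. Small RNA of 15 of the 30 entries fell and that of 6 rose (limma, 1004 entries tested), where 57.5% of all entries were called, 40.6% lower and 16.8% higher. The median log2 change was -0.24, and -0.28 over all 1004 entries. Trimmed-mean scaling, which moved the median of all entries to 0.01, gave 9 lower and 9 higher of the 30 entries instead, and 295 lower and 262 higher of all 1004. Of the 21 calls, 15 kept their direction and passed under it.

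Nemawashi fell most, to 725 and 735 RPM in Ago3KD cells, against 2033 and 2181 RPM in LucKD cells (log2 change -1.53 ± 0.08, limma adjusted p = 8.08e-20). This was the unplaced entry with the highest small RNA in control cells in RPM, not divided by length, and its replicates lay close together. BmRT24 had 107 and 82.2 RPM in Ago3KD cells against 219 and 242 RPM in LucKD cells (log2 change -1.29 ± 0.12, limma adjusted p = 7.40e-12). LTR1_BM had 47.9 and 49.1 RPM in Ago3KD cells against 78.9 and 88.5 RPM in LucKD cells, and the Copia entry BmTE_RM5-2697 had 102 and 108 RPM in Ago3KD cells against 172 and 184 RPM in LucKD cells. Otora, also Copia, had 70.8 and 64.8 RPM in Ago3KD cells against 109 and 113 RPM in LucKD cells. These 5 falls held under every alternative tried, as did those of LTR-2_BM-I, BmTE_RM6-2931, BmTE_RM6-3582 and BmTE_RM6-4594.

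The 2 parts of LTR-2_BM moved in opposite directions. The internal part had 412 and 428 RPM in Ago3KD cells against 791 and 954 RPM in LucKD cells (log2 change -1.05 ± 0.09, limma adjusted p = 2.44e-13). The terminal repeat had 103 and 107 RPM in Ago3KD cells against 62.8 and 62.4 RPM in LucKD cells (log2 change 0.74 ± 0.14, limma adjusted p = 1.38e-05). The ratio of internal to repeat reads was therefore 3.98 and 4.00 in Ago3KD, 8.34 and 9.80 in MaelKD and 12.6 and 15.3 in LucKD cells. Since both values come from the same library, this ratio does not depend on the scaling. RNA of both parts rose after Siwi knockdown, as given above.

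The other rises after Ago3 knockdown included entries with little small RNA. BmRT25 (unplaced) had 36.4 and 48.2 RPM in Ago3KD cells against 15.8 and 10.8 RPM in LucKD cells (log2 change 1.61 ± 0.23, limma adjusted p = 1.26e-07). The Copia entry BmTE_RM6-2486 had 46.3 and 30.8 RPM in Ago3KD cells against 21.0 and 15.9 RPM in LucKD cells (log2 change 1.01 ± 0.24, limma adjusted p = 0.000390), and BmRT14, also Copia, had 72.7 and 73.0 RPM in Ago3KD cells against 49.1 and 48.2 RPM in LucKD cells (log2 change 0.57 ± 0.15, limma adjusted p = 0.00141). These 3 and LTR-2_BM-LTR were called higher in every alternative tried. Benibana and BmRT17 rose by 0.20 ± 0.08 and 0.22 ± 0.09 on the log2 scale, calls lost without Ago3KD replicate 1 or 2 or without LucKD replicate 2.

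Smaller changes depended on the scaling. BmRT15, a Copia entry, had 1137 and 1116 RPM in Ago3KD cells against 1314 and 1248 RPM in LucKD cells (log2 change -0.18 ± 0.07, limma adjusted p = 0.0319), and its sign turned with trimmed-mean scaling, as did that of BmRT26. Both calls were also lost without either Ago3KD replicate or LucKD replicate 1, and that of BmRT26 without LucKD replicate 2. FUI had 160 and 157 RPM in Ago3KD cells against 220 and 252 RPM in LucKD cells (limma adjusted p = 3.42e-05), a call lost under that scaling. Falls of Copia-2_BM-I, Judo and Nukegara, by 0.49, 0.45 and 0.35 on the log2 scale, were lost there too. In all, 9 of 30 entries did not pass as deposited, among them BmRT16, yokozuna, Karate and Kuroneko. Of these 9, yokozuna, BmTE_RM6-5209 and BmRT27 were called higher with trimmed-mean scaling, at 0.50, 0.47 and 0.65 on the log2 scale.

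**Figure D4:**
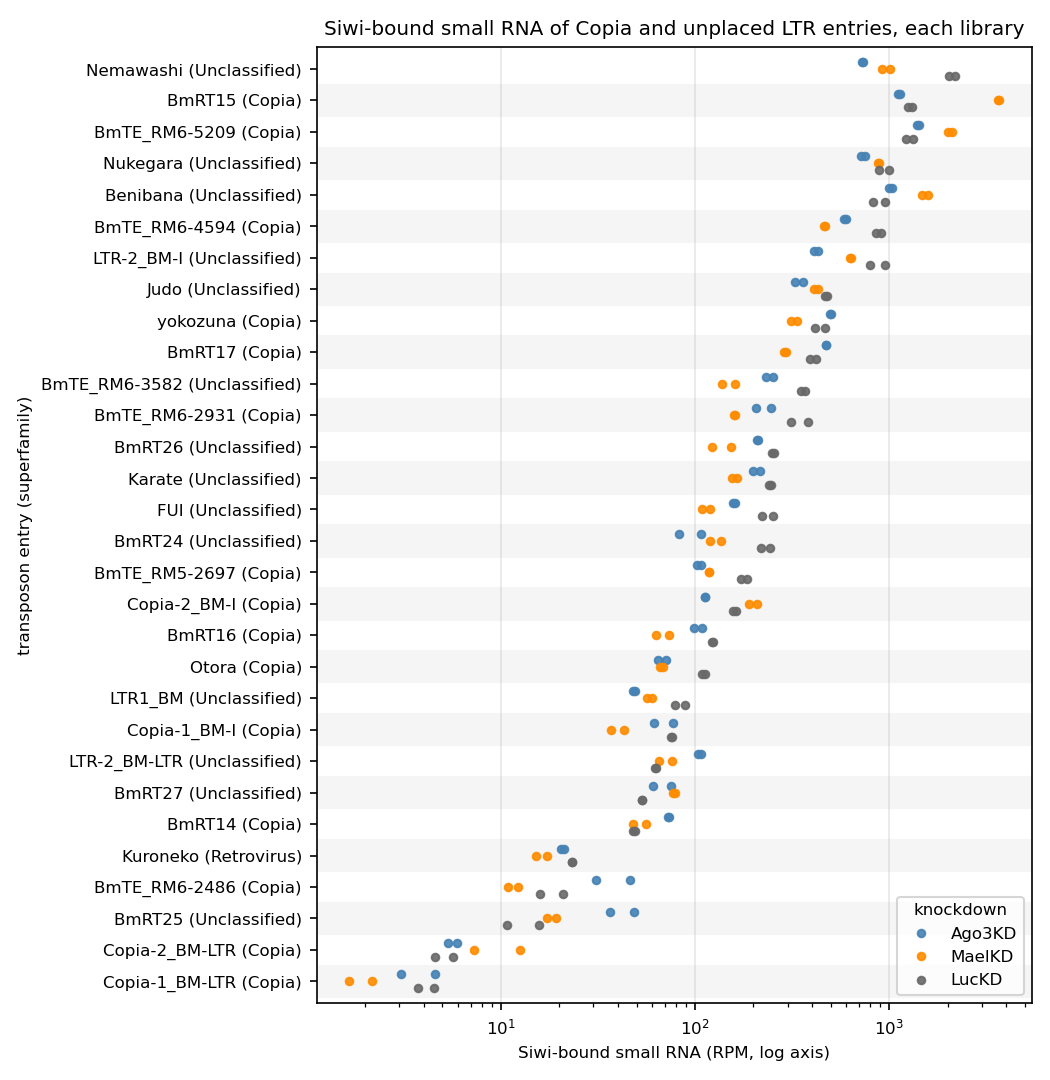
Siwi-bound small RNA (RPM, log axis) of all 30 entries in each of 6 libraries, with Ago3KD, MaelKD and LucKD points for each entry. Nemawashi is lower in Ago3KD (725 and 735 RPM) and MaelKD cells (920 and 1008 RPM) than in LucKD cells (2033 and 2181 RPM), while BmRT15 is higher in MaelKD cells (3618 and 3696 RPM).

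Maelstrom knockdown was set against control to ask how the Siwi-bound pool changes when this factor is targeted. Small RNA of 17 of the 30 entries fell and that of 6 rose, where 56.2% of all 1004 entries were called, 44.4% lower and 11.8% higher. The median log2 change was -0.50, and -0.44 over all 1004 entries. With trimmed-mean scaling, which moved the median of all entries to 0.07, 6 of the 30 entries were called lower and 11 higher, beside 194 lower and 261 higher of all 1004. Only 12 of the 23 calls held their direction and passed under both scalings, 6 lower and 6 higher. Copia entries had 9 falls and 4 rises, and unplaced entries 8 falls and 2 rises.

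BmRT15 stood out among the rises, with 3618 and 3696 RPM in MaelKD cells against 1314 and 1248 RPM in LucKD cells. This was a 2.86-fold difference of means (log2 change 1.51 ± 0.07, limma adjusted p = 2.71e-20). In RNA the same entry had 0.738 and 0.862 RPKM in MaelKD and 0.785 and 0.832 RPKM in LucKD cells, with overlapping groups below the filter. Another Copia entry, BmTE_RM6-5209, had 2094 and 2012 RPM in MaelKD cells against 1323 and 1213 RPM in LucKD cells (log2 change 0.70 ± 0.08, limma adjusted p = 3.25e-10). Benibana (unplaced) had 1577 and 1478 RPM in MaelKD cells against 946 and 824 RPM in LucKD cells (log2 change 0.79 ± 0.08, limma adjusted p = 6.74e-11). BmRT27, which had almost no RNA reads, had 76.7 and 79.2 RPM in MaelKD cells against 53.3 and 53.3 RPM in LucKD cells (log2 change 0.54 ± 0.15, limma adjusted p = 0.00186). These 4 were called higher in every alternative tried.

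Both parts of Copia-2_BM were also called higher. The internal part had 190 and 208 RPM in MaelKD cells against 162 and 156 RPM in LucKD cells (limma adjusted p = 0.0126). The repeat had 7.28 and 12.5 RPM in MaelKD cells against 4.58 and 5.67 RPM in LucKD cells (limma adjusted p = 0.0461). Both calls were lost without MaelKD replicate 2 (limma adjusted p = 0.145 for the internal part and 0.440 for the repeat), and that of the repeat also without either LucKD replicate. Copia-1_BM-I went the other way, with 43.3 and 36.9 RPM in MaelKD cells against 75.5 and 76.0 RPM in LucKD cells (log2 change -0.91 ± 0.15, limma adjusted p = 3.51e-06). This fall was not called with trimmed-mean scaling (limma adjusted p = 0.0767).

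BmTE_RM6-3582 (unplaced) fell most, to 161 and 138 RPM in MaelKD cells, against 369 and 350 RPM in LucKD cells (log2 change -1.26 ± 0.10, limma adjusted p = 1.62e-13). Nemawashi had 920 and 1008 RPM in MaelKD cells against 2033 and 2181 RPM in LucKD cells (log2 change -1.13 ± 0.08, limma adjusted p = 1.70e-15), and the Copia entry BmTE_RM6-2931 had 161 and 160 RPM in MaelKD cells against 380 and 313 RPM in LucKD cells (log2 change -1.10 ± 0.11, limma adjusted p = 2.38e-11). FUI, the entry highest in RNA, had 120 and 108 RPM in MaelKD cells against 220 and 252 RPM in LucKD cells (log2 change -1.04 ± 0.11, limma adjusted p = 1.96e-10). BmTE_RM6-4594 had 459 and 468 RPM in MaelKD cells against 903 and 854 RPM in LucKD cells, and BmRT26 had 122 and 154 RPM in MaelKD cells against 248 and 254 RPM in LucKD cells. These 6 falls held under every alternative tried. The replicates of each lay on one side of both controls.

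Other falls did not pass under both scalings. Under the deposited scaling BmRT16 fell by 0.85, BmRT24 by 0.85, Otora by 0.71, BmTE_RM6-2486 by 0.62, Karate by 0.60 and BmTE_RM5-2697 by 0.59 on the log2 scale, and none of these passed with trimmed-mean scaling. The call of BmTE_RM6-2486 was also lost without MaelKD replicate 2 or LucKD replicate 1. LTR-2_BM-I had 632 and 638 RPM in MaelKD cells against 791 and 954 RPM in LucKD cells, BmRT17 had 295 and 289 RPM in MaelKD cells against 420 and 392 RPM in LucKD cells, and yokozuna had 311 and 335 RPM in MaelKD cells against 466 and 416 RPM in LucKD cells. All 3 were called lower as deposited, and the fitted sign of each turned with trimmed-mean scaling, as did that of LTR1_BM. BmRT14, BmRT25, Judo, Kuroneko, Nukegara, LTR-2_BM-LTR and Copia-1_BM-LTR did not pass as deposited. With trimmed-mean scaling BmRT14, BmRT25 and LTR-2_BM-LTR were called higher, at 0.66, 1.00 and 0.74 on the log2 scale. Judo and Nukegara were called higher there too, at 0.42 and 0.50, while Kuroneko and Copia-1_BM-LTR did not pass.

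The direct comparison of Maelstrom with Ago3 knockdown called 14 of the 30 entries lower and 9 higher, where 52.4% of all 1004 entries were called, 31.7% lower and 20.7% higher. With trimmed-mean scaling it called 8 lower and 13 higher, beside 201 lower and 263 higher of all 1004. BmRT15 had 3618 and 3696 RPM in MaelKD cells and 1137 and 1116 RPM in Ago3KD cells (log2 difference 1.70 ± 0.07, limma adjusted p = 1.50e-22). Copia-2_BM-I had 190 and 208 RPM in MaelKD and 113 and 113 RPM in Ago3KD cells (log2 difference 0.82 ± 0.11, limma adjusted p = 4.68e-08). LTR-2_BM-I, Benibana and BmTE_RM6-5209 stood 0.60, 0.59 and 0.54 higher on the log2 scale.

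In the other direction BmTE_RM6-2486 had 12.2 and 10.9 RPM in MaelKD cells and 46.3 and 30.8 RPM in Ago3KD cells (log2 difference -1.63 ± 0.24, limma adjusted p = 2.07e-07). BmRT25 had 19.2 and 17.4 RPM in MaelKD and 36.4 and 48.2 RPM in Ago3KD cells (log2 difference -1.16 ± 0.23, limma adjusted p = 4.76e-05). The Copia entries Copia-1_BM-I, BmRT17 and yokozuna stood 0.77, 0.70 and 0.63 lower on the log2 scale, and BmRT16 and BmRT26 both stood 0.61 lower. Of the 23 calls, 14 held under every alternative tried. These were the 5 higher entries above with Nemawashi, and the 7 lower entries above with BmTE_RM6-3582.

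**Figure D5:**
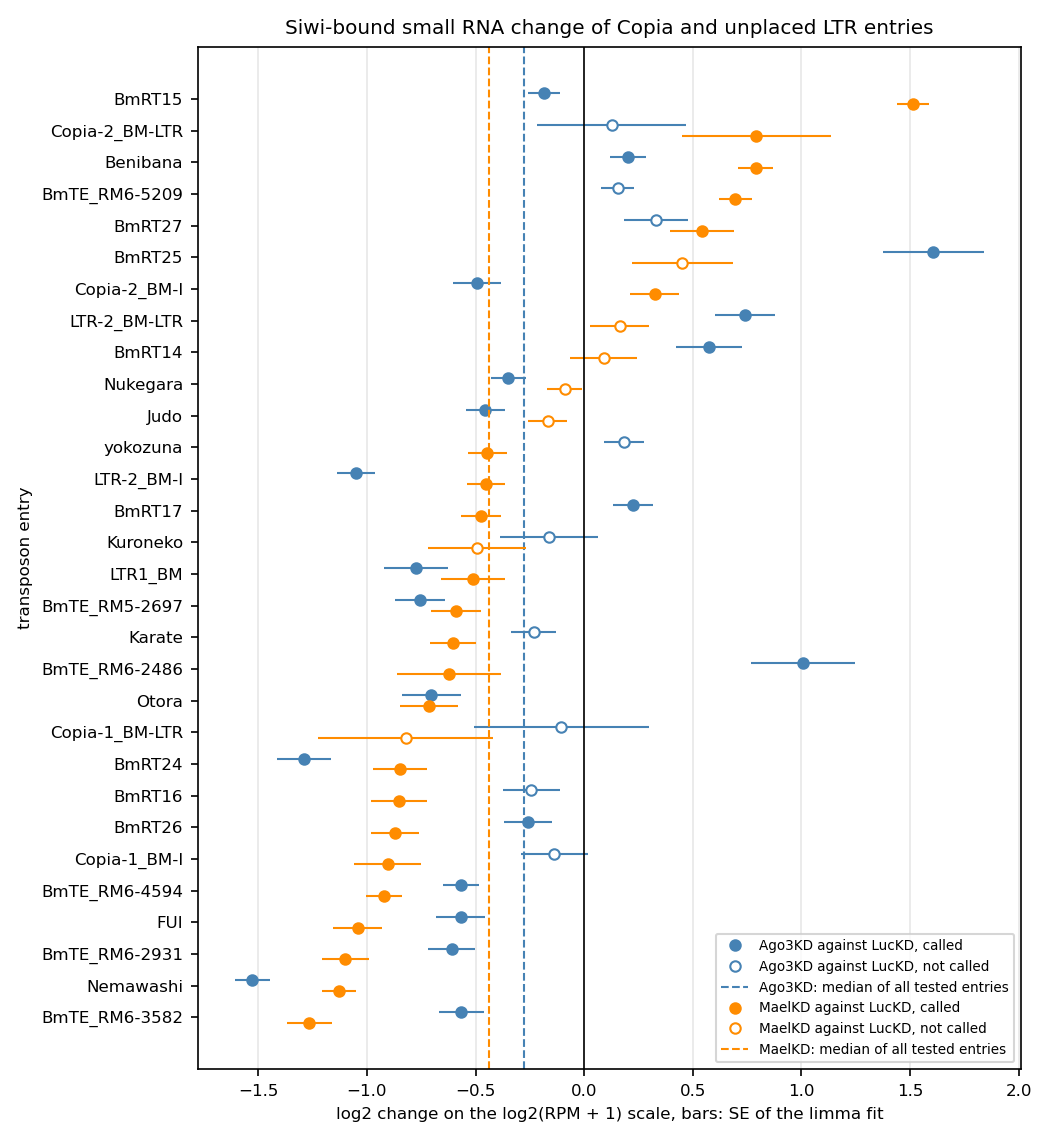
Log2 change of Siwi-bound small RNA for all 30 entries after Ago3 and after Maelstrom knockdown, each against the same LucKD libraries, with SE bars, filled points where the adjusted p was under 0.05 and dashed lines at the median of all 1004 tested entries (-0.28 and -0.44). BmRT15 is at -0.18 for Ago3KD and 1.51 for MaelKD, and BmTE_RM6-2486 at 1.01 and -0.62.

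Side by side, the RNA and small RNA changes of single entries did not follow a single pattern. LTR-2_BM-I had more RNA (log2 change 0.99) and less Siwi-bound small RNA (-0.45, or 0.13 with trimmed-mean scaling) after Maelstrom knockdown, and BmRT16 had 0.67 in RNA and -0.85 in small RNA (-0.27 with trimmed-mean scaling, which did not pass). BmTE_RM6-3582 had the largest fall in small RNA of the 30 entries after Maelstrom knockdown, beside an RNA change of -0.03 that did not pass. Benibana and BmTE_RM6-5209, whose small RNA rose, had RNA changes of -0.30 and -0.22 that did not pass. Small RNA after Siwi knockdown and RNA after Ago3 knockdown were not analysed here. Over the 16 tested entries, the RNA change after Siwi knockdown and the control small RNA per kb had a Spearman's rho of -0.05, given as a description.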

How the data were processed

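Both tables list 1716 transposon entries. RNA values are RPKM and small RNA values RPM, as the authors deposited them, per the file headers. The submitters' processing notes name STAR 2.7.9a, Bowtie 1.3.0, cutadapt 3.1, Trim Galore, bedtools and SAMtools. For the role of each, the genome build, strand and multiply matching reads, the answer is not given in the sources used here. Whole reads were recovered from both units. All RPM values (100%) were whole multiples of 1 read within 0.001 reads. In RNA, all 978 of 978 entries with reads gave whole numbers once a library total and the smallest fitting length were found, and this gave 6926 and 7603 nt for 2 entries whose names state those lengths. A floor of 3 reads equals 0.624 to 1.70 RPM in the small RNA libraries and covers counting error only.

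The main test was limma 3.58.1 (R 4.3.3, eBayes with trend) on log2(value + 1) of entries with a mean of at least 1, which left 490 in RNA and 1004 in small RNA. All 6 libraries of a table entered each fit. Tests were two-sided, adjusted over every tested entry. Folds are ratios of group means, whereas log2 changes include the added 1 and so are too small for low entries. Replicates were not duplicates, with a chi-square of 3.69 to 51.7 per entry. Alternatives were another pseudocount, other filters, trimmed-mean scaling, a replicate block, the 4 compared libraries alone, each library left out, and edgeR 4.0.16 on recovered reads. The code was tested on simulated data. Entries named in the text followed a rule: all names other than BmTE_RM codes, the 5 highest in LucKD cells of each table, and the 5 largest rises and falls of each comparison. Entries and lists were chosen with earlier results of these data known.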

Additional observations from a re-analysis of the deposited data

How the results depend on the processing

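The RNA rises after Siwi knockdown numbered 10, against 5 with no filter, 4 with a mean of at least 10 RPKM (4 entries tested), 16 with edgeR on recovered reads and no filter, and 5 to 10 without 1 library. After Maelstrom knockdown RNA calls numbered 2, against 1 with no filter, 4 with edgeR, 5 with edgeR and no filter, and 0 to 1 without 1 library. Between Maelstrom and Siwi knockdown they numbered 8, against 2 with no filter, 3 with a mean of at least 10 RPKM and 4 with trimmed-mean scaling. Without any 1 library compared they numbered fewer than 8, and calls over all 490 entries fell too. Over all entries, rises after Siwi knockdown numbered 119 of 490, and 72 of 978 with no filter. The filter at 10 RPKM gave 56 of 156, and edgeR with no filter 133 of 978. After Maelstrom knockdown 54 of 490 were called, 19 of 978 with no filter and 64 of 978 with edgeR and no filter. Between Maelstrom and Siwi knockdown 100 of 490 were called, and 30 of 978 with no filter. The filter at 10 RPKM gave 42 of 156 there, and trimmed-mean scaling 57 of 490. What made the counts differ was not tested. Small RNA counts stayed within 1.5 times in each alternative (17 to 24 after Ago3 knockdown, 17 to 24 after Maelstrom knockdown and 21 to 23 between them), but trimmed-mean scaling changed their direction split as given above.

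The summed share differed from control by 0.114 (SiwiKD) and 0.0231 (MaelKD) percentage points in RNA, and by 0.0321 and 0.0115 without FUI. In small RNA it differed by -0.283 (Ago3KD) and 0.0696 (MaelKD), and by -0.267 and -0.168 without BmRT15. The Copia sum in MaelKD cells differed from control by 0.217, and by -0.0204 without BmRT15, which is less than 1 SD of the LucKD libraries. With trimmed-mean scaling the sign turned after Ago3 knockdown for BmRT15 (0.14) and BmRT26 (0.062), and after Maelstrom knockdown for BmRT17 (0.11), LTR-2_BM-I (0.13), LTR1_BM (0.067), yokozuna (0.14), Judo (0.42) and Nukegara (0.50), the last 2 then called higher. The filter on the control mean, edgeR without a filter and the Copia sum without BmRT15 were chosen after seeing the data.

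Whether same-numbered libraries were made together is not known from their labels. Their deviations had correlations of -0.0461 to 0.0454 over entries, which cannot settle it. With the replicate block, calls numbered 11, 3 and 8 in RNA and 24, 22 and 23 in small RNA, in the order of comparisons above. Over all entries the block gave 148, 62 and 108 calls of 490 in RNA and 579, 567 and 528 of 1004 in small RNA. On recovered reads edgeR called 139, 61 and 111 of 490 entries in RNA and 606, 574 and 512 of 1004 in small RNA. Few RNA reads limit what can be said of BmRT27 and Otora. Over all 6 libraries BmRT27 had 2 reads at the smallest length that fits, and Otora had 54.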

Other observations

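FUI, Karate and BmRT26 shared a pattern between replicates in RNA, which was noticed in the data. SiwiKD replicate 1 was 2.06, 2.07 and 2.45 times replicate 2, and MaelKD replicate 1 was 0.773, 0.668 and 0.516 times replicate 2. Of 490 tested entries, 14 had SiwiKD replicate 1 at least 2 times replicate 2. The pattern was not limited to the 3: BmTE_RM6-913, an unclassified entry outside the 30, had ratios of 2.34 in SiwiKD and 0.433 in MaelKD cells. Whether these entries share sequence was not tested. The ratio of FUI to Karate RNA was 41.9 and 42.1 in SiwiKD, 24.2 and 20.9 in MaelKD and 30.4 and 25.4 in LucKD cells.

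BmRT27 and the terminal repeats of Copia-1_BM and Copia-2_BM had Siwi-bound small RNA with at most 0.0122 RPKM of RNA in any library. The repeats had 1.65 to 4.59 RPM (Copia-1_BM-LTR) and 4.58 to 12.5 RPM (Copia-2_BM-LTR) over all 6 small RNA libraries.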
